A study of Mus musculus with 384 samples.

Results

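The respiratory chain and ATP synthase genes are the nuclear genes for the protein complexes that carry electrons from NADH and succinate to oxygen in the inner mitochondrial membrane and use the resulting proton gradient to make ATP. They were taken as the genes of the count table whose symbols begin with Nduf followed by a, b, c, s or v, with Uqcr, with Cox4 to Cox8 or with Atp5, together with the 4 succinate dehydrogenase genes Sdha to Sdhd. The rule used names only and no measured value. It found 92 of 23481 genes: 38 of complex I (NADH dehydrogenase), 7 complex I assembly factors whose symbols begin with Ndufaf, 4 of complex II (succinate dehydrogenase), 8 of complex III (cytochrome bc1), 18 of complex IV (cytochrome c oxidase) and 17 of ATP synthase.

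Macrophages were grown from bone marrow of 13-week-old male C57BL/6 mice, either with the Myd88 gene knocked out (KO) or wild type (WT), in medium with CMG, and all of them carried a pool of reporter viruses added on day 4. They were replated on day 9, and each well received 1 of 12 ligands (Pam3Cys, R848, CpG, FLA, LPS, MDP/LPS, Zymosan, Poly(I:C), SeV, TDB, MDP or HT-DNA) and was lysed after 0, 0.5, 1, 1.5, 2, 2.5, 3 or 4 h. Each genotype filled 2 plates of 96 wells, with 1 well for each ligand and time on a plate, which gave 384 wells. RNA was counted at transcript 3′ ends, and levels are given as CPM, a gene's counts scaled to a common total for the same wells. The labels do not say whether the plates of a genotype came from separate animals or cultures. P-values thus measure only the spread between plates, or between single wells in the check of ligand labels at time 0. In the main fits by time, ligand and time class, sums of the same plate entered as separate libraries. Genotype cannot be told apart from plate.

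Complexes I and II feed electrons into the chain, complexes III and IV pass them on by way of cytochrome c, and protons pumped by complexes I, III and IV drive ATP synthase. Macrophages activated by bacterial products are known for a shift toward glycolysis and for the use of succinate dehydrogenase and complex I in signalling, with itaconate, the product of Irg1 (also named Acod1), as an inhibitor of succinate dehydrogenase. Myd88 is the adaptor through which most Toll-like receptors signal, and LPS can also signal through the adaptor Trif. A few subunits of complexes I, III, IV and ATP synthase are encoded in mitochondrial DNA and are not analysed here.

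Well totals ran from 71720 to 767167 counts with a median of 342561, and 17 wells held under 150000 counts and are called shallow here, 8 of them the R848 wells of KO replicate 2. Myd88 transcript at time 0 measured 14.5 and 17.0 CPM on KO plates and 30.4 and 35.0 CPM on WT plates. The labels do not name the deleted part of Myd88, and a 3′ tag outside that part checks nothing. The response gene Il1b reached 182.3 and 225.0 CPM in late LPS wells of KO, against 5351 and 5189 CPM in those of WT. It already differed at time 0, at 37.7 and 35.8 CPM in KO and 484.8 and 604.2 CPM in WT. Rsad2, another response gene, reached 22859 and 21637 CPM in late LPS wells of KO and 31651 and 25717 CPM in those of WT. Its time 0 level was 1339 and 1055 CPM in KO and 1618 and 2169 CPM in WT. The 11 macrophage markers summed to 4424 and 4323 CPM in KO and 4605 and 4530 CPM in WT with 0 of 11 at 0, and the largest of the other marker sums, 5 neutrophil genes, was 142.7 and 156.4 CPM in KO and 162.8 and 140.9 CPM in WT. The remaining markers (T cell, B cell, dendritic, fibroblast, erythroid and mast cell) each summed to under 16 CPM on every plate.

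Many promoters of respiratory genes are known to hold sites for Ets-family factors such as GABP and for NRF1. As described below, 32 of the genes had higher counts in KO, and short stretches around such letters are shown for those that held them. A part of these letters in the genotype difference was not tested. Of the 92 genes, 76 matched a RefSeq promoter entry (GRCm38.p6), and the 250 bases before each annotated start were searched on both strands. The letters CCGGAAG, or CTTCCGG on the other strand, the core of Ets-family sites, were in 17.1% of the 76 genes (13), beside 7.83% of 27025 genes with an entry. GCATGCG, or CGCATGC on the other strand, the core of NRF1 sites, was in 13.2% of them (10), beside 3.43% of all. AAGATGG or its reverse was in 2.63% of them and in 5.18% of all, and TATAAA or its reverse in 7.89% and 14.3%. Over the windows, the median share of G and C was 56.8% for the respiratory genes and 52.4% for all. Of the 28 matched genes with higher counts in KO, CCGGAAG was in 28.6% (8) and GCATGCG in 21.4% (6), beside 10.4% and 8.33% of the other 48 matched genes. Those 48 were all matched genes not called higher, with no filter on counts, so they are not a set of expressed and unchanged genes. These shares are descriptions and were not tested, and a match shows letters, not a bound site.

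The CCGGAAG matches of the genes with higher counts in KO are given on the gene's strand, 5′ to 3′, with the match in capitals and 10 bases on each side where the window allows.
Atp5h: aaggagagaaCTTCCGGcaactctctt
Atp5j: gctgagggacCCGGAAGcacttaccct
Atp5l: cttcaccgatCTTCCGGaccaacatga
Ndufb7: cctagatgacCCGGAAGacactgaagg
Ndufs3: ccgcgtccgcCCGGAAGaagagtcact
Sdhd: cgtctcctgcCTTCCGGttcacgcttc
Uqcr11: tctctcctccCCGGAAGtagatgtcaa
Uqcrh: gtatgccgcaCTTCCGGcca
The match began 10 bases before the start in Uqcrh, 20 in Ndufb7, 27 in Ndufs3, 38 in Atp5h, 46 in Sdhd, 61 in Atp5j, 66 in Uqcr11 and 212 in Atp5l. The Uqcrh stretch lies at chr4:116075071-116075090 and the Sdhd stretch at chr9:50603879-50603905, both on the minus strand of GRCm38.p6.

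The GCATGCG matches of the same set are shown in the same way, and Atp5j and Atp5l held both letter strings.
Atp5g2: ctccggccgcGCATGCGcagagccttc
Atp5j: gccagaatacGCATGCGtacagtgcag
Atp5l: aaccaataacGCATGCGcatttccccc
Ndufa11: tgcactgcgcGCATGCGcgcacgcctt
Ndufa6: ccgcggtagaGCATGCGcattgcagag
Sdhb: agcccagtggGCATGCGccctacgggc
The Ndufa6 stretch lies at chr15:82354358-82354384 on the minus strand, with its match 83 bases before the start. In Atp5g2, Atp5j, Atp5l and Ndufa11 the match overlaps a second match read on the other strand.

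Of the 92 genes, 87 had at least 1 count, 38 had at least 10000 over all wells, 43 had from 1000 to below 10000, 6 had from 1 to below 1000 and 5 had none. Those without a count were all isoforms of a subunit that is present in another form: Cox4i2, Cox7b2, Cox8b, Cox8c and Ndufa4l2 had 0 counts in 384 wells. In the pairs of complex IV isoforms, the widely expressed form carried nearly all counts. Cox6a1 stood at 120.2 and 139.9 CPM in KO and 107.5 and 100.1 CPM in WT, against 0.835 and 0.807 CPM in KO and 0.375 and 1.18 CPM in WT for Cox6a2, the heart and muscle form. Cox7a2 had 15765 counts over all wells and Cox7a1, its heart and muscle form, had 218, and Cox6b1 had 21575 counts and Cox6b2, its testis form, had 4. Cox8a was the one counted form of subunit 8, with 14910 counts. The c-ring of ATP synthase is made from 3 genes for the same mature peptide, and all were counted: Atp5g3 with 32066, Atp5g2 with 10920 and Atp5g1 with 6199 counts. Counts of 3′ ends were not corrected for length, so these totals describe the tables and not molar amounts.

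The genes with the most counts per complex were Ndufa10, Ndufa2 and Ndufa13 in complex I, Sdhb, Sdhc and Sdha in complex II, and Uqcrh, Uqcr10 and Uqcrfs1 in complex III. In complex IV they were Cox4i1, Cox7a2l and Cox6b1, in ATP synthase Atp5b, Atp5g3 and Atp5l, and among assembly factors Ndufaf2, Ndufaf7 and Ndufaf4. Ndufa10, an accessory subunit of complex I, held the most of any, with 54911 counts. Of 91 genes with 1 annotated position each, 1 (Cox6a1) had a gene of near-identical 3′ end, 1 (Cox7c) overlapped a gene on its own strand and 11 overlapped one on the opposite strand, among them Ndufb2, Ndufa3 and Ndufaf2. Whether counting used strand is not given in the sources used here, so reads of those overlapping pairs cannot be told apart.

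Over whole plates the summed level of the 92 genes was higher in KO, at 8041 and 8349 CPM, against 6551 and 6333 CPM in WT (8195 ± 218 in KO and 6442 ± 154 CPM in WT, SD, n = 2 plates each). Both KO plates lay above both WT plates, and the genes took 0.804% and 0.835% of all counts in KO and 0.655% and 0.633% in WT. The log2 ratio of the sums was 0.35 as CPM and 0.25 after TMM scaling, which sets library sizes by the bulk of genes and multiplied them by 1.04 and 1.03 in KO and by 0.979 and 0.953 in WT. These values are shares of counts and give neither the number of cells nor the RNA per cell, which cannot be told apart in bulk wells.

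The same order held in each of the 5 complexes. Complex II stood at 387.5 and 392.0 CPM in KO and 284.4 and 286.6 CPM in WT, a log2 ratio of 0.45 of the CPM sums. Complex III stood at 771.9 and 768.6 CPM in KO and 605.9 and 574.1 CPM in WT (log2 0.38), and complex I at 2597 and 2774 CPM in KO and 2128 and 2067 CPM in WT (log2 0.36). ATP synthase genes summed to 2358 and 2366 CPM in KO and 1895 and 1839 CPM in WT (log2 0.34), and complex IV genes to 1818 and 1918 CPM in KO and 1521 and 1446 CPM in WT (log2 0.33). The plates overlapped for the complex I assembly factors, at 109.7 and 130.8 CPM in KO and 116.1 and 120.8 CPM in WT.

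**Figure D1:**
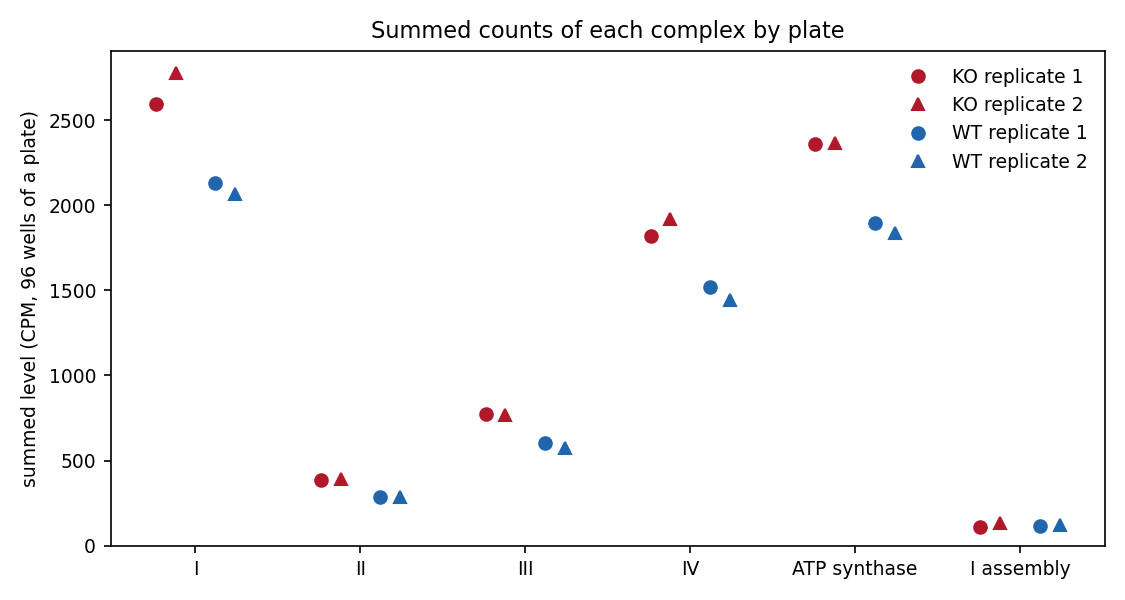
Summed level of each complex in CPM (vertical axis, from 0) on each of the 4 plates, with KO in red left of WT in blue, circles for replicate 1 and triangles for replicate 2. Both KO points lie above both WT points for complexes I to IV and ATP synthase, and the points mix for the complex I assembly factors.

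Gene by gene, 86 of the 92 passed the filter on low counts over whole plates, and the edgeR quasi-likelihood test of 2 KO against 2 WT plates called 32 higher and 1 lower in KO at a Benjamini-Hochberg adjusted p under 0.05. Over all 12690 genes tested, 29.9% were called, 13.1% higher and 16.8% lower in KO, so the share of respiratory genes called higher (37.2%) was above the background and the share called lower (1.16%) below it. The median log2 change was 0.24 over the 86 genes and 0.02 over all genes tested. By CPM with no TMM scaling the medians were 0.34 and 0.12. Both KO plates lay above both WT plates, TMM-scaled, in 66 of the 86 genes (76.7%), and below in 1 (1.16%), beside 33.7% and 32.4% of all genes. The count of 33 became 15 without WT replicate 1 and 12 without WT replicate 2, and 40 and 30 without KO replicate 1 and KO replicate 2. With DESeq2 it was 30, and with wells thinned to equal depth, an alternative chosen after seeing the data, it was 28.

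**Figure D2:**
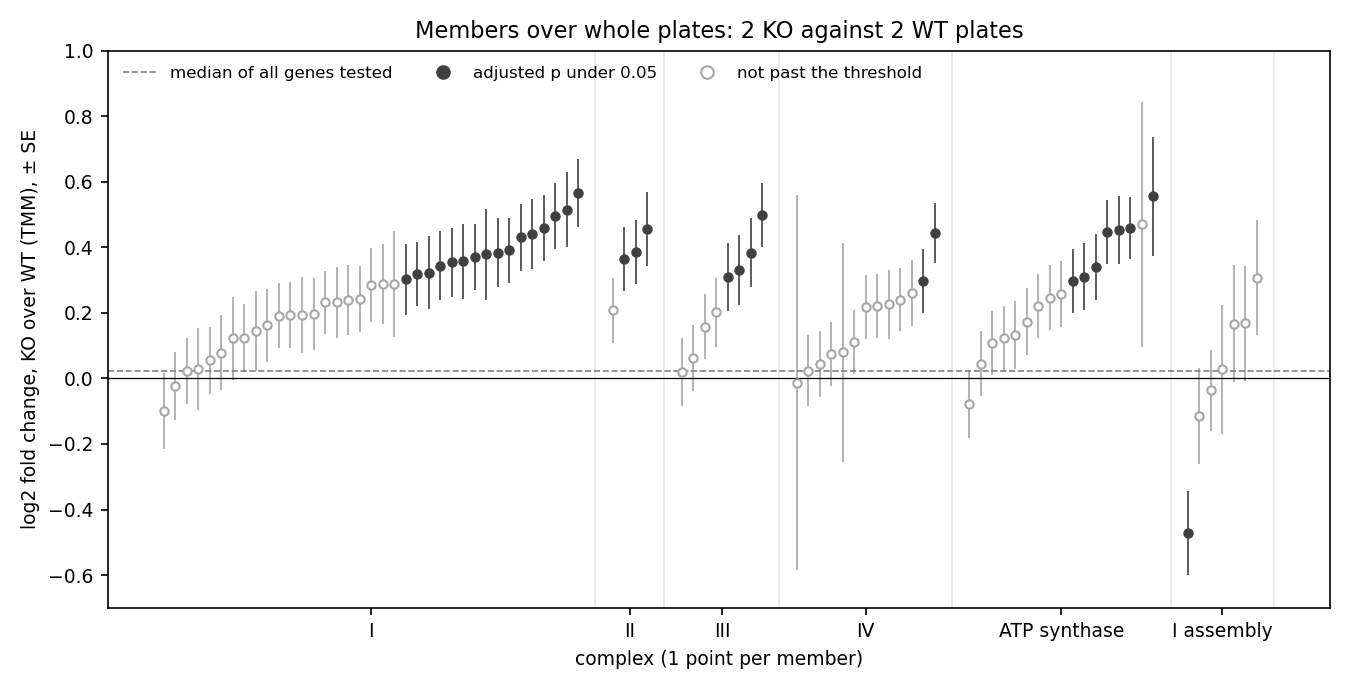
Log2 fold change of KO over WT across whole plates (vertical axis, TMM-scaled, bars ± SE) for the 86 genes tested, ordered within each complex, with filled points for those called and the dashed line for the median of all genes. Filled points above 0 occur in all 5 complexes, and the 1 filled point below 0 is the assembly factor Ndufaf4 at -0.47.

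Complex I gave 16 higher of 37 tested and 0 lower. Ndufa6, an accessory subunit (chromosome 15, 82350140 to 82354322, mm10), stood at 85.18 and 91.97 CPM in KO, against 58.52 and 53.2 CPM in WT (log2 0.57, SE 0.10, edgeR adjusted p 0.00046). Its groups did not overlap, and it had the smallest p of the 86 genes. Ndufv1, the core subunit that binds NADH, stood at 38.8 and 34.9 CPM in KO and 24.3 and 23.9 CPM in WT (log2 0.52, SE 0.11, edgeR adjusted p 0.00245). The accessory subunit Ndufb11 stood at 82.2 and 76.5 CPM in KO and 53.1 and 51.9 CPM in WT (log2 0.50, SE 0.10, edgeR adjusted p 0.00126). The core subunit Ndufs3 (log2 0.44) and the accessory subunits Ndufa13 (log2 0.46), Ndufb5 (log2 0.43) and Ndufb9 (log2 0.39) also passed. Ndufa10, with the highest counts, did not, at 422.7 and 510.0 CPM in KO and 377.5 and 383.4 CPM in WT (log2 0.19, SE 0.10, edgeR adjusted p 0.157). Ndufa4, named for complex I but since assigned to complex IV, gave log2 0.12 (SE 0.10, edgeR adjusted p 0.389).

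Of the 7 assembly factors, which help build complex I and are not part of it, 0 were higher and 1 was lower in KO. Over all genes tested 13.1% were higher and 16.8% lower, so 1 lower of 7 is near the background. Ndufaf4 (chromosome 4, 24898083 to 24905001) stood at 17.8 and 16.6 CPM in KO, against 21.5 and 22.9 CPM in WT (log2 -0.47, SE 0.13, edgeR adjusted p 0.00984). It was the 1 gene of the 86 called lower, and the call was lost without WT replicate 2. The other 6 assembly factors did not pass and ran from log2 -0.11 for Ndufaf2 to 0.31 for Ndufaf5.

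Of the 4 complex II genes, 3 were higher in KO. Sdhb, the iron-sulfur subunit, stood at 124.1 and 123.8 CPM in KO and 91.6 and 88.1 CPM in WT (log2 0.36, SE 0.10, edgeR adjusted p 0.00894). The membrane anchors Sdhd, at 71.1 and 77.0 CPM in KO and 45.9 and 54.8 CPM in WT, and Sdhc, at 101.4 and 103.4 CPM in KO and 73.5 and 72.8 CPM in WT, gave log2 0.46 and 0.39 (edgeR adjusted p 0.00565 and 0.00672). Sdha, the flavoprotein that oxidises succinate, did not pass, at 90.9 and 87.8 CPM in KO and 73.4 and 70.9 CPM in WT (log2 0.21, SE 0.10, edgeR adjusted p 0.121).

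Of the 8 complex III genes, 4 were higher in KO. Uqcrh, the hinge protein, stood at 206.7 and 227.1 CPM in KO and 147.2 and 139.4 CPM in WT (log2 0.50, SE 0.10, edgeR adjusted p 0.000972). The Rieske iron-sulfur protein Uqcrfs1 (log2 0.38), the core protein Uqcrc1 (log2 0.33) and the small subunit Uqcr11 (log2 0.31) also passed. The second core protein, Uqcrc2, gave log2 0.06 (SE 0.10, edgeR adjusted p 0.679) and Uqcrb log2 0.02 (SE 0.10, edgeR adjusted p 0.909).

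In complex IV 2 of the 13 genes tested were higher in KO, a share near the 13.1% of all genes tested. Cox4i1, the main form of subunit 4 (chromosome 8, 120668222 to 120674207), stood at 359.0 and 369.7 CPM in KO, against 249.8 and 250.1 CPM in WT (log2 0.44, SE 0.09, edgeR adjusted p 0.00146). Cox7a2l, a relative of subunit 7a that takes part in joining complexes III and IV, stood at 241.0 and 230.4 CPM in KO and 190.1 and 168.0 CPM in WT (log2 0.30, SE 0.10, edgeR adjusted p 0.0283). Cox6b1 missed the threshold (log2 0.26, SE 0.10, edgeR adjusted p 0.0579), as did Cox7a2 (log2 0.22, SE 0.10, edgeR adjusted p 0.0958). For Cox8a, Cox7b and Cox7c the log2 change was 0.08, 0.04 and 0.02.

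For ATP synthase 7 of 17 genes were higher in KO. They included the stalk subunits Atp5c1 (gamma), at 180.4 and 175.1 CPM in KO and 126.8 and 116.6 CPM in WT (log2 0.45, SE 0.10, edgeR adjusted p 0.00214), and Atp5d (delta), with log2 0.45. Atp5l, the membrane subunit g, stood at 270.9 and 266.6 CPM in KO and 188.9 and 175.7 CPM in WT (log2 0.46, SE 0.09, edgeR adjusted p 0.00132). The catalytic-head genes were not called: Atp5b (beta) stood at 295.5 and 254.9 CPM in KO and 241.6 and 230.4 CPM in WT (log2 0.12, SE 0.10, edgeR adjusted p 0.374), and Atp5a1 (alpha) gave log2 0.11 (SE 0.10, edgeR adjusted p 0.432). Of the c-ring genes, Atp5g2 was higher (log2 0.30, SE 0.10, edgeR adjusted p 0.03), and Atp5g1 and Atp5g3 gave log2 0.13 and 0.05 without passing. No test was run between subunits. Atp5sl passed with log2 0.56, from 8.82 and 8.81 CPM in KO and 6.03 and 5.15 CPM in WT. In spite of its symbol it is known as an assembly factor of the complex I membrane arm.

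Other gene lists give the setting of this difference over whole plates, and differences between lists were not tested. Over all genes tested, 13.1% were called higher and 16.8% lower in KO. Of 82 cytosolic ribosomal protein genes tested, 52 were higher and 1 lower in KO (median log2 0.30), with Rplp0 at log2 0.57 (SE 0.08) and Rpl11 at 0.52 (SE 0.09). They summed to 73251 and 79905 CPM in KO, against 60268 and 59673 CPM in WT. Of 76 mitochondrial ribosome genes 19 were higher and 2 lower (median log2 0.24), Mrpl14 among the higher. The median of the respiratory genes, 0.24, was equal to that of the mitochondrial ribosome to 2 decimals and below that of the cytosolic ribosome. Of 18 citric acid cycle genes 5 were higher and 0 lower (median log2 0.18), with Idh2 (isocitrate dehydrogenase) at 0.49 and Fh1 (fumarase) at 0.45. Of 38 respiratory assembly and partner genes outside the name rule 5 were higher and 1 lower (median log2 0.07), among them Cox14 and Surf1, which help to assemble complex IV. Of 23 mitochondrial import and carrier genes 3 were higher and 2 lower (median log2 0.11), the lower ones the ADP/ATP carrier Slc25a4 (log2 -0.34) and the import receptor Tomm70a (log2 -0.33). In the partner list and the import list the share called higher was near that of all genes, and the share called lower was below it.

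Further lists of energy metabolism held genes that were lower in KO, as were 16.8% of all genes tested. Of 18 glycolysis genes 3 were higher and 4 lower, with a median log2 of 0.11 and a sum of 4427 and 4048 CPM in KO, against 3600 and 3598 CPM in WT, so the list as a whole was not lower. Gpi1 (glucose-6-phosphate isomerase) was among the higher, at log2 0.38 (SE 0.10). Among the lower were Pfkfb3, which makes the activator of phosphofructokinase, at log2 -1.66 (SE 0.14, edgeR adjusted p 5.03e-08) and hexokinase 2 (Hk2) at -0.68 (SE 0.11). Of 6 genes of itaconate, nitric oxide, uncoupling and superoxide 1 was higher and 4 lower (median log2 -1.04). The lower ones were Nos2 (inducible nitric oxide synthase, log2 -4.63), Sod2 (mitochondrial superoxide dismutase, log2 -1.23), Irg1 (log2 -1.23) and Hif1a (log2 -0.85). Of 13 regulators of respiratory genes 0 were higher and 2 lower (median log2 -0.16), Yy1 (log2 -0.65, SE 0.11) and the coactivator Ppargc1b (log2 -0.54, SE 0.13). The share of the regulators called lower was near that of all genes, and that of the glycolysis genes a little above it.

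At time 0, the 12 wells of each plate lysed without stimulation time, the summed level was 8049 and 8217 CPM in KO, against 7126 and 7027 CPM in WT, a log2 ratio of 0.20. Tested beside all ligands and time classes in 1 fit, 0 of 84 genes passed with edgeR, and 0 had an unadjusted p under 0.05. Of all 10562 genes, 0.312% were called. The median log2 change of the 84 was 0.14 and of all genes 0.02, against a median SE of 0.39, so differences of the whole-plate size were not detectable in this fit. The smallest p belonged to Ndufb11, at 88.8 and 87.1 CPM in KO and 56.1 and 54.6 CPM in WT (log2 0.64, SE 0.38, edgeR adjusted p 1). Next were Ndufa9, Uqcrfs1 and Atp5c1, with log2 0.73, 0.60 and 0.47 and an edgeR adjusted p of 1 each. In the fit of ligand sums by time, where the SE was smaller, the same time 0 wells gave 1 of 85 genes called, Ndufb11 (log2 0.62, SE 0.18, edgeR adjusted p 0.0317). Over all 11566 genes of that fit, 73 were higher and 347 lower in KO, so the share of respiratory genes called in either direction was below that of all genes, and the share called higher, which rests on 1 gene, above it.

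The ligand label at time 0 stands for no exposure, and it serves as a check of well-to-well differences. Over 48 single time 0 wells 0 of 78 genes differed by label with edgeR (2 at an unadjusted p under 0.05, and 0 with the DESeq2 likelihood ratio test), beside 0.874% of 7434 genes. The lowest and highest wells of the summed level among all 384 were both time 0 wells of KO replicate 2, labelled R848 with 3767 CPM at 97701 counts and MDP with 11216 CPM at 185536 counts.

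Over the 4 h the KO plates kept the higher summed level at all 8 times, with both KO plates above both WT plates each time, ligands summed. The log2 ratio of the CPM sums was 0.20 at time 0, 0.30 at 0.5 h, 0.34 at 1 h, 0.34 at 1.5 h, 0.42 at 2 h, 0.35 at 2.5 h, 0.35 at 3 h and 0.45 at 4 h. At 4 h the level was 7345 and 8747 CPM in KO and 6319 and 5482 CPM in WT. The KO plates lay on both sides of their own time 0 level at 1.5, 2, 2.5, 3 and 4 h, and both WT plates were below theirs at each time from 1 h on.

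**Figure D3:**
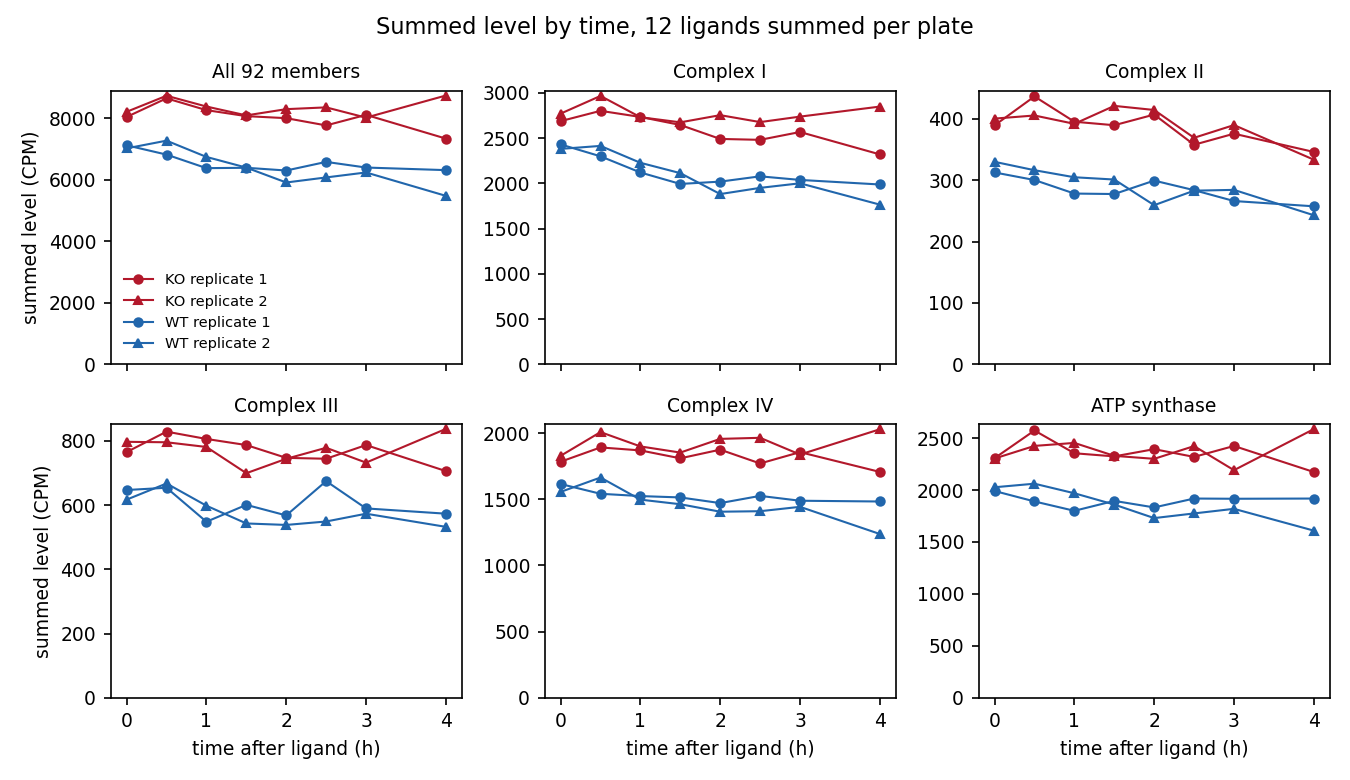
Summed level in CPM (vertical axes, from 0) by hours after ligand (horizontal axis), ligands summed, for all 92 genes and for each complex, with a line for each plate (KO red, WT blue). The red lines lie above the blue ones at all 8 times in the panel of all genes, and at 4 h they stand at 7345 and 8747 CPM, against 6319 and 5482 CPM for the blue lines.

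KO against WT was also tested at each time, ligands summed, a comparison added after the data were seen. Over the 8 times 49 of 680 tests of respiratory genes (7.21%) were called higher in KO and 0 lower, beside 2.87% and 6.81% over all genes. The calls fell on 25 genes. They numbered 1 at time 0, 0 at 0.5 h, 6 at 1 h, 6 at 1.5 h, 11 at 2 h, 4 at 2.5 h, 6 at 3 h and 15 at 4 h. Over all 11566 genes, those called higher numbered 73, 102, 324, 315, 446, 407, 378 and 609 at the same 8 times. Later times thus held more calls among all genes too, and a rise of the respiratory share with time was not tested. Ndufb11 and Uqcrh were called at 5 times each, and Ndufa6, Ndufa13 and Cox4i1 at 4. Of the 15 genes called at 4 h, Ndufa6 had the largest change (log2 0.79, SE 0.19, edgeR adjusted p 0.00274), and Uqcrh gave log2 0.67 (SE 0.15), Cox4i1 0.63 (SE 0.13) and Cox7a2l 0.58 (SE 0.15).

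Change from time 0 was rare among these genes. In KO, with ligands summed, the 7 later times gave 2 calls in 595 tests (0.336%), both lower, beside 3.81% over all genes. Ndufa10 stood at 298.5 and 415.7 CPM at 2.5 h, against 499.9 and 561.2 CPM at time 0 (log2 -0.50, SE 0.15, edgeR adjusted p 0.0434). At 3 h it stood at 411.5 and 558.2 CPM, which overlapped time 0. Ndufaf4 stood at 8.77 and 13.0 CPM at 4 h, against 21.3 and 22.9 CPM at time 0 (log2 -0.90, SE 0.30, edgeR adjusted p 0.0477). At the 2 times called, the plates did not overlap those of time 0. The call of Ndufa10 was lost with DESeq2, with its size factors, with the ribosomal transcript Rn45s removed, without shallow wells, and without either WT plate or KO replicate 1. That of Ndufaf4 was lost with no filter and without any 1 of the 4 plates. Without KO replicate 1 the count was 9, with neither gene among them and 8 of them higher at 2.5 or 4 h (Cox4i1 and Ndufa13 included).

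In WT the 7 later times also gave 2 calls in 595 tests (0.336%), both lower, beside 6.06% of tests over all genes. Both calls were Ndufa6. In KO Ndufa6 stood at 63.4 and 87.8 CPM at 4 h, against 81.6 and 111.4 CPM at time 0, and did not pass. In WT it stood at 40.9 and 44.4 CPM at 3 h and at 42.5 and 37.4 CPM at 4 h, against 79.0 and 79.9 CPM at time 0. The WT plates of either time did not overlap those of time 0, and the log2 changes were -0.74 (SE 0.19, edgeR adjusted p 0.0056) at 3 h and -0.77 (SE 0.19, edgeR adjusted p 0.00294) at 4 h. Both calls were lost without WT replicate 1 and without WT replicate 2. The difference between genotypes in its change was not called at any time. The KO minus WT difference of the change was called for 0 of 595 tests with edgeR (20 at an unadjusted p under 0.05, and 0 with DESeq2), beside 0.116% over all genes.

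**Figure D4:**
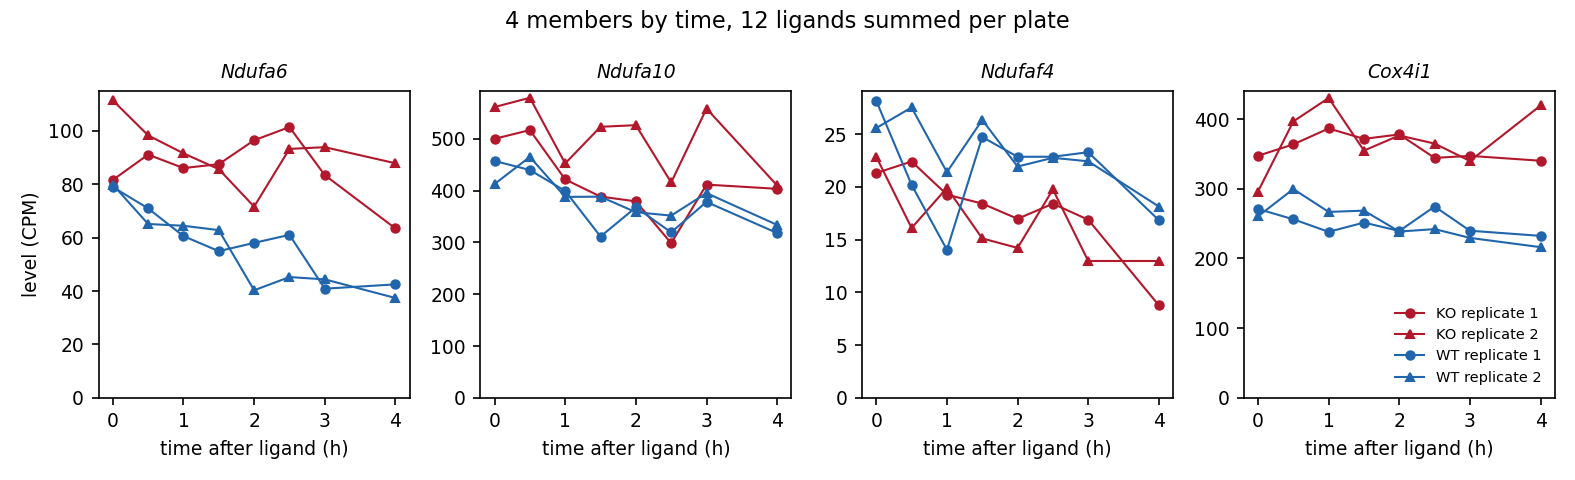
Level in CPM (vertical axes, from 0) by hours after ligand (horizontal axis) of Ndufa6, Ndufa10, Ndufaf4 and Cox4i1, ligands summed, with a line for each plate (KO red, WT blue). Ndufa6 in WT stands at 42.5 and 37.4 CPM at 4 h, against 79.0 and 79.9 CPM at time 0, and the Cox4i1 lines of KO stay above those of WT.

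By ligand, times summed, the KO mean of the summed level was higher with 12 of 12 ligands, with no overlap of plates for 11. The log2 ratio ran from 0.20 for R848 to 0.47 for Zymosan. With Zymosan the level was 7599 and 7925 CPM in KO and 5753 and 5442 CPM in WT. With R848, where the plates overlapped, it was 7873 and 6140 CPM in KO and 5780 and 6416 CPM in WT, and the lower KO value is that of the shallow wells of KO replicate 2. Of the 96 single ligand and time points, both KO wells lay above both WT wells in 78 and below in 1.

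Tested with each ligand, times summed, again added after the data were seen, 30 of 1032 tests of respiratory genes (2.91%) were called higher in KO and 1 (0.0969%) lower, beside 1.16% and 3.25% over all genes. Zymosan gave 13 of the 30, FLA 6, Pam3Cys, R848 and CpG 3 each, MDP/LPS and TDB 1 each, and the other 5 ligands 0 each. Over all 11468 genes, those called higher numbered 216 with Zymosan, 233 with FLA, 372 with Pam3Cys, 331 with R848 and 263 with CpG. They numbered 65 with MDP/LPS, 17 with TDB, 66 with LPS, 15 with SeV, 12 with MDP, 5 with Poly(I:C) and 5 with HT-DNA. With Pam3Cys and R848 the share of the 86 respiratory genes called higher was thus close to that of all genes. Of the 13 called with Zymosan, the largest changes were those of Ndufa13 (log2 1.27, SE 0.23, edgeR adjusted p 0.000218), Ndufb10 (log2 1.10), Ndufb5 (log2 1.02) and Uqcrh (log2 1.01). Sdhd was called with Pam3Cys (log2 0.99), R848 (log2 0.85) and Zymosan (log2 0.87), and the 1 lower call was Ndufaf4 with FLA (log2 -1.22, SE 0.35, edgeR adjusted p 0.0224). Differences between ligands were not tested.

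In late wells (2.5, 3 and 4 h) the summed level lay below the plate's own time 0 level on all 4 plates for 5 ligands, Pam3Cys, LPS, MDP/LPS, Zymosan and SeV, and above it on all 4 for FLA. With LPS it was 6263 and 6891 CPM in KO, a mean change of -1556 CPM, and 5012 and 5373 CPM in WT, a mean change of -1884 CPM. With MDP/LPS it was 6127 and 7156 CPM in KO and 5357 and 4794 CPM in WT. With Zymosan it was 7334 and 7617 CPM in KO and 5516 and 4671 CPM in WT. In FLA wells it was 10413 and 9511 CPM in KO and 7425 and 7217 CPM in WT, and KO replicate 1 held 2 shallow wells with FLA. These sums carry no test.

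The time 0 level above is that of the 12 wells of a plate together, and single wells with no exposure differed from each other. They differed between plates under the same label too, as with MDP in KO at 7889 and 11216 CPM. Against the 1 time 0 well of the same label and plate, late levels were lower on all 4 plates for LPS, MDP/LPS and SeV, but not for Zymosan or Pam3Cys. With Zymosan KO replicate 2 stood at 7617 CPM late, against 7253 CPM in its own time 0 well. With Pam3Cys KO replicate 1 stood at 7685 CPM late, against 7115 CPM, and WT replicate 2 at 5470 CPM late, against 4411 CPM. Wells labelled FLA were already high at time 0, with 10266 and 8571 CPM in KO and 8102 and 7846 CPM in WT, so that late FLA levels were above their own time 0 wells in KO and below them in WT.

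After TMM scaling, the median log2 change of the 84 genes, late against the 12 time 0 wells, was set beside that of all genes. With LPS it was -0.08 in KO and -0.21 in WT, beside -0.12 and -0.13 over all genes. With MDP/LPS it was -0.04 in KO and -0.20 in WT, beside -0.12 and -0.13. With Zymosan it was 0.03 in KO and -0.32 in WT, beside -0.10 and -0.08. The WT median was thus below that of all genes with these ligands, and the KO median was above it. The same order held with R848, SeV, TDB and HT-DNA. With R848 the median was 0.07 in KO and -0.17 in WT, beside -0.08 and -0.07 over all genes. With TDB it was -0.01 in KO and -0.16 in WT, beside -0.03 and -0.03. With Pam3Cys it was -0.11 in KO and -0.28 in WT, beside -0.01 and -0.06, and with SeV 0.04 in KO and -0.11 in WT, beside -0.08 and -0.06. With FLA it was 0.39 in KO and 0.13 in WT, beside -0.07 and -0.04. With CpG, Poly(I:C) and MDP the medians of both genotypes were also above those of all genes. Differences between medians were not tested.

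**Figure D5:**
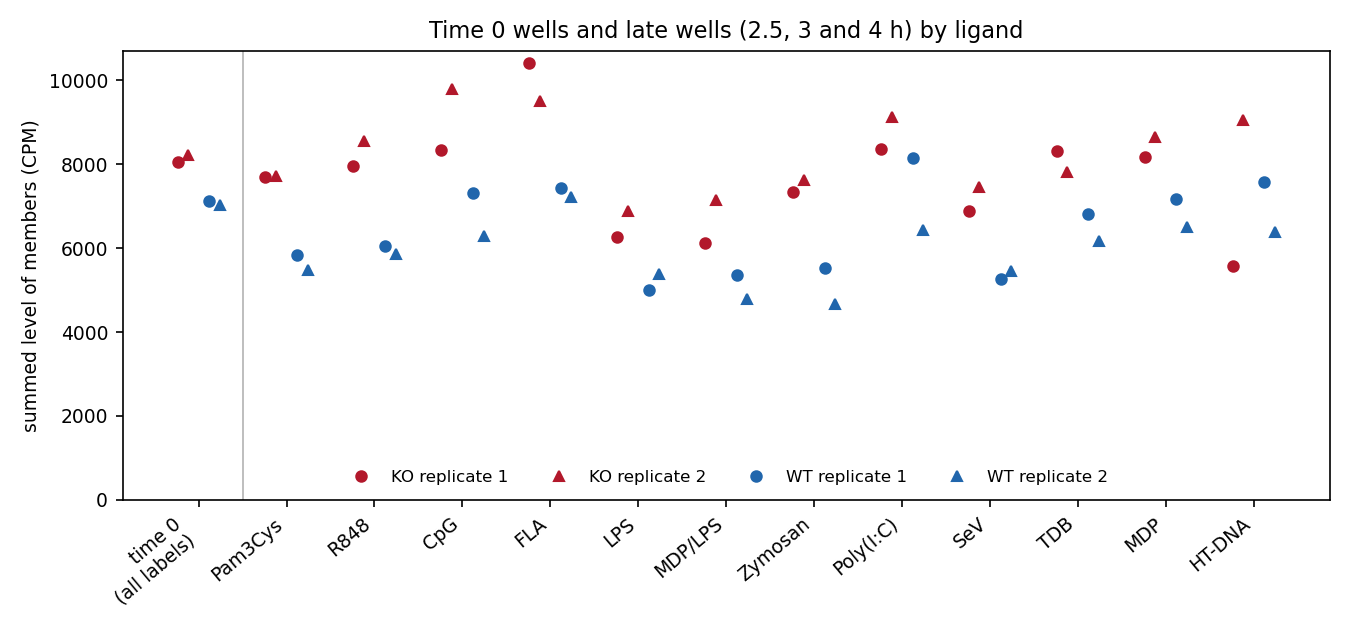
Summed level of the 92 genes in CPM (vertical axis, from 0) at time 0 and in late wells of each ligand (horizontal axis), with KO in red left of WT in blue and circles and triangles for replicates 1 and 2. The 4 points of LPS lie between 5012 and 6891 CPM, below the time 0 points of 7027 to 8217 CPM, and the KO points of HT-DNA are far apart at 5566 and 9040 CPM.

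Single genes rarely passed in these late comparisons, whose median SE was near 0.4 on the log2 scale. In KO the 12 ligands gave 3 calls in 1008 tests (0.298%), beside 2.19% over all genes. In WT they gave 0 of 1008 with edgeR (18 at an unadjusted p under 0.05), beside 2.8%. The KO minus WT difference of the late change gave 0 of 1008 with edgeR (9 at an unadjusted p under 0.05), beside 0.158%. Without KO replicate 1 or without KO replicate 2, which changes the shared estimate of spread, the WT count was 4, with Atp5l and Atp5a1 higher with Poly(I:C), Ndufaf4 lower with SeV and Ndufb3 lower with Zymosan.

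The 3 late calls in KO came with 2 ligands. With Poly(I:C) Atp5l stood at 410.4 and 538.0 CPM, against 257.6 and 215.0 CPM at time 0 (log2 1.16, SE 0.37, edgeR adjusted p 0.0354). With the same ligand Ndufa10 stood at 185.5 and 175.3 CPM, against 499.9 and 561.2 CPM at time 0 (log2 -1.40, SE 0.47, edgeR adjusted p 0.0479). With Zymosan Ndufv2, a core iron-sulfur subunit of complex I, stood at 130.5 and 190.2 CPM, against 71.6 and 84.8 CPM at time 0 (log2 1.23, SE 0.38, edgeR adjusted p 0.0365). In none of the 3 did the plates overlap. Late WT wells with the same ligands held 414.8 and 230.7 CPM of Atp5l, 241.8 and 250.7 CPM of Ndufa10 and 93.3 and 128.1 CPM of Ndufv2, and did not pass. All 3 calls were lost without WT replicate 1, without WT replicate 2 and without KO replicate 2, that of Ndufv2 also without KO replicate 1 and with no filter, and that of Ndufa10 also with Rn45s removed. Leaving out KO replicate 1 or KO replicate 2 gave a count of 5 over the 12 ligands each time, with other ligands and genes included, such as Ndufa10 lower with R848 and with HT-DNA. The difference between genotypes was not called for any of the 3.

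Late Ndufa10 was uneven between plates for some ligands, which were chosen here after their values were seen. In KO it stood at 512.2 and 123.9 CPM with R848, at 180.0 and 556.6 CPM with FLA and at 92.4 and 468.0 CPM with HT-DNA, each pair from replicates 1 and 2. In WT it stood at 168.3 and 490.4 CPM with CpG. In each of the KO pairs the low value came from the plate that held shallow wells with that ligand (8 for R848, 2 for FLA and 2 for HT-DNA). In the WT pair it did not: the shallow CpG well was on WT replicate 2, which had the higher value. The part of depth in these values was not tested.

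Grouping ligands gave no further call. For the LPS and MDP/LPS wells together, 0 of 84 genes passed with edgeR late against time 0 in KO (3 at an unadjusted p under 0.05), in WT (0) and for the difference (0), beside 6.58%, 8.46% and 0.0379% of all genes. For Pam3Cys, R848 and CpG together the counts were 0 in KO (0 at an unadjusted p under 0.05), 0 in WT (1) and 0 for the difference (0), beside 0.00947%, 4.47% and 1.33%. Some other genes of energy metabolism passed in LPS-containing wells. Of 18 glycolysis genes 2 rose in KO and 3 in WT, with 0 falling. Of 36 assembly and partner genes 1 rose in KO, and 1 rose and 1 fell in WT. Over all 10562 genes, 413 rose and 282 fell in KO, and 570 rose and 324 fell in WT. The share of the partner genes that rose was thus below that of all genes in both. Irg1 rose in KO by log2 3.53 (SE 0.45) and in WT by log2 2.95 (SE 0.43), with edgeR adjusted p-values of 3.53e-09 and 1.17e-07, as did Sod2 (log2 2.06 in KO and 2.02 in WT). Hk2 rose in KO (log2 1.65) and in WT (log2 2.57), and the glucose transporter Slc2a1 in KO (log2 1.43) and in WT (log2 1.06). Cycs, which encodes the cytochrome c that links complexes III and IV, rose in KO (log2 1.22, SE 0.31, edgeR adjusted p 0.00412). It was not called in WT, where of the partner genes Coa5 rose (log2 1.21) and Surf1 fell (log2 -1.82). In WT Pfkfb3 (log2 2.29), Ppargc1b (log2 2.76) and Ogdh of the citric acid cycle list (log2 0.97) rose as well.

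At 4 h, ligands summed, Cycs rose in KO by log2 1.00 (SE 0.16) and in WT by log2 0.69 (SE 0.16), with edgeR adjusted p-values of 4.54e-06 and 0.000929, and Coa5, which helps to assemble complex IV, rose in KO (log2 1.07) and in WT (log2 0.75). Surf1 fell in WT (log2 -1.06, SE 0.28). Of 38 such assembly and partner genes 2 rose and 0 fell in KO, and 2 rose and 2 fell in WT. Over all 11566 genes, 744 rose and 296 fell in KO and 1044 rose and 508 fell in WT, so the share of the list that rose was below that of all genes in both. The median change of the 85 respiratory genes at 4 h was 0.16 in KO and -0.06 in WT, beside -0.02 and 0.00 over all genes. Of the glycolysis genes 5 of 18 rose in KO and 7 of 18 in WT, with 0 falling in either.

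Depth and ribosomal RNA were set beside the genotype difference. Among the 32 deepest wells of each plate the median summed level was 7911 and 8342 CPM in KO, against 6309 and 6241 CPM in WT. Among the 32 shallowest it was 7986 and 7390 CPM in KO and 6923 and 6502 CPM in WT, so the KO plates were the higher in both. The median share of the ribosomal transcript Rn45s was 9.41% and 7.76% in KO wells and 7.36% and 9.13% in WT wells, and the plates overlapped. In a well, a median of 82 and 81 of the 92 genes had a count in KO and of 82.5 and 81 in WT.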

How the data were processed

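Wells were grouped by the labels for genotype, plate, ligand and time. Reads were aligned to build mm10 with BWA, per the submitters' processing notes. Its version, the annotation, the counting program and the handling of molecular tags are not stated there. The deposited table holds a whole-number count for each gene in each well, made by the authors, with 0 columns of other samples, and was tested as it is. Of 23481 genes 7381 had no count. Wells of a plate were summed over the plate, by time, by ligand, or by time class per ligand (early 0.5 and 1 h, middle 1.5 and 2 h, late 2.5, 3 and 4 h) beside a sum of the 12 time 0 wells. Plate sums held 29737092 to 37323548 counts, sums by time at least 3089060 and class sums at least 198344, and lower totals limit what can be called. No wells were identical.

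Each set of sums was fitted in R 4.3.3 with edgeR 4.0.16: filterByExpr with a minimum count of 10, TMM, a trended dispersion, robust quasi-likelihood, and Benjamini-Hochberg adjustment within a comparison over all genes, at 0.05. The scripts were tested on simulated data. DESeq2 1.42.0 was an alternative. Other alternatives were other size factors, no filter, Rn45s removed, shallow wells out, each plate left out and plate as a block. Sums over ligands or times by genotype were added after the data were seen, and members and lists were chosen with earlier results of these data known. Genes were named by a rule: up to 10 called ones a direction with the largest changes, the 3 highest of each complex, the 4 smallest p over whole plates and at time 0, isoform sets, response genes, and up to 4 called genes of each other list. Some further genes were named after their values were seen. Plate numbers were not used to pair samples in the main fits. The correlation of deviations between KO and WT plates was 0.0564, and between sums of a plate at different times its median was 0.05 in KO and 0.0321 in WT. Since sums of the same plates correlated as weakly, this measure cannot show whether plates were paired. Positions are GENCODE M21, promoters RefSeq. The values of 1 gene are not reported here.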

Additional observations from a re-analysis of the deposited data

Results flagged for a closer look

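At 1 h with ligands summed, the summed level of the 92 genes minus that at time 0 was positive on both KO plates, at 221.8 and 171.2 CPM, and negative on both WT plates, at -743.2 and -278.7 CPM. The KO mean minus the WT mean of this change was 707.5 CPM. It was flagged because every plate of one genotype moved one way and every plate of the other the opposite way, and this difference of the sums was not tested. Gene by gene, the edgeR test of the same difference called 0 of 85 genes, with 3 at an unadjusted p under 0.05.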

How the results depend on the processing

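Over whole plates the count of 33 respiratory genes ran from 12 to 40 when each plate was left out in turn, and from 28 to 41 under the other settings, 41 with the replicate block. Of the 33, 15 were called in the same direction without WT replicate 1 and 11 without WT replicate 2. When each plate was left out, late calls over 12 ligands ran from 0 to 5 in KO and from 0 to 4 in WT, and their difference from 0 to 2. Late calls in LPS-containing wells of KO ran from 0 to 1, and calls over 7 times from 0 to 9 in KO and 0 to 4 in WT. Over 7 times the KO count of 2 was 1 with DESeq2 size factors, 1 with no filter, 1 with Rn45s removed and 1 without shallow wells, but 3 with the replicate block. The WT count of 2 was 4 with DESeq2 and 4 with the replicate block. The ligand label at time 0 gave 1 call (Atp5l) with no filter. The cause was not tested in any of these, and the block moved no other count by over 1.5 times. The block was the replicate number over whole plates and plate within genotype in the other fits, with the dispersion of the fit without it. The summed level was 8978 CPM in KO and 7027 CPM in WT with Rn45s removed, and 7917 and 6667 CPM with TMM scaling. Without a plate it ran from 8041 to 8349 CPM in KO and from 6332 to 6551 CPM in WT. Of the 33 calls over whole plates and the 7 of change from time 0, none changed sign under the settings run on them. The calls by genotype at single times or ligands and those of other lists were not followed across settings. DESeq2 was not run on the sums by ligand and time class. Their median SE near 0.4 limits them to large changes.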
